A study of Mus musculus with 8 samples.

Results

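Collagens are the main structural proteins of the extracellular matrix. The 44 genes described here are those of the gene count table of 8 lines of mouse embryonic fibroblasts (MEFs) whose symbol has the form Col, a number, a and a number, out of 55401 genes listed. RNA was sequenced from 4 WT and 4 SLMAP3-/- lines of E14.5 embryos of strain B6C3F1, each line as 1 library. Each line is taken to come from a separate embryo. All 8 lines were immortalized with SV40 large T antigen, and the knockout was the germline loss of SLMAP3, obtained with a Cre driven by the CMV promoter that recombines floxed alleles at exon 3. The comparison asks whether the expression of collagen genes differed between MEFs with and without SLMAP3, a protein of the centrosome and of the STRIPAK complex.

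Every collagen is a trimer of α chains wound into a triple helix. Fibrillar collagens such as types I, III and V form the banded fibrils of connective tissue, and FACIT collagens, named for their interrupted triple helices, sit on the surface of such fibrils. Type IV collagens form the network of basement membranes, type VI collagens form beaded filaments close to cells, and types VIII and X form hexagonal networks. Fibroblasts are the main source of fibrillar collagen in most connective tissues. The 44 genes were grouped by these known structures into 11 fibrillar, 9 FACIT, 6 basement membrane, 6 beaded filament, 3 hexagonal network, 4 transmembrane, 2 multiplexin and 2 other collagens and the anchoring fibril collagen Col7a1.

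The total estimated count of a line lay between 49879059 and 63322486. Slmap had 124, 139, 143 and 141 CPM in WT replicates 1 to 4 and 44.3, 32.7, 36.3 and 39.7 CPM in SLMAP3-/- replicates 1 to 4, and its log2 fold change of -1.84 (standard error 0.11) was the only call at an adjusted p under 0.05 among the 15461 genes tested (adjusted p = 0.00119 by the quasi-likelihood test of edgeR). CPM are counts scaled to a common library size after TMM normalization. The 7 fibroblast markers, among them Pdgfra, Pdgfrb and Vim, all passed the filter on low counts and summed to between 4021 and 5504 CPM in each line. Vim gave 2129 to 3353 CPM of this sum, and single markers differed between lines. Pdgfra was at 17.4 CPM in WT replicate 1 and at 79.0 to 179 CPM in the other lines. Thy1 ran from 26.2 CPM in WT replicate 2 to 204 CPM in SLMAP3-/- replicate 3. The summed markers of other cell types were 25.4 to 56.6 CPM for chondrocytes, 74.5 to 121 for osteoblasts, of which Runx2 gave 70.9 to 116, 9.53 to 41.9 for endothelium and at most 5.30 for each of epithelium, Schwann cells, skeletal muscle and blood. Smooth muscle markers summed to between 1975 and 4873 CPM. Of this, Acta2 gave 1095 to 3086 CPM, Tagln 521 to 1321, Cnn1 114 to 335 and Smtn 73.3 to 131. Myh11 had 0.226 to 2.06 CPM and Des 0.134 to 0.425 CPM. Y-linked genes were expressed in 1 line of each genotype, WT replicate 3 and SLMAP3-/- replicate 2.

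Collagen genes took 1.92, 2.40, 2.13 and 2.50% of all estimated counts in WT replicates 1 to 4 and 1.86, 1.88, 2.00 and 1.69% in SLMAP3-/- replicates 1 to 4. The share was 2.24% ± 0.263 (SD, n = 4) in WT and 1.86% ± 0.128 (SD, n = 4) in SLMAP3-/- lines. WT replicate 1 lay below SLMAP3-/- replicate 3, so the genotypes overlapped, and no test was run on this sum over the members. In bulk RNA, fewer cells of a type and less RNA per cell cannot be told apart. Without Col1a1, Col1a2 and Col3a1 the share was 1.27% ± 0.178 (SD, n = 4) in WT and 1.06% ± 0.0850 (SD, n = 4) in SLMAP3-/- lines.

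**Figure D1:**
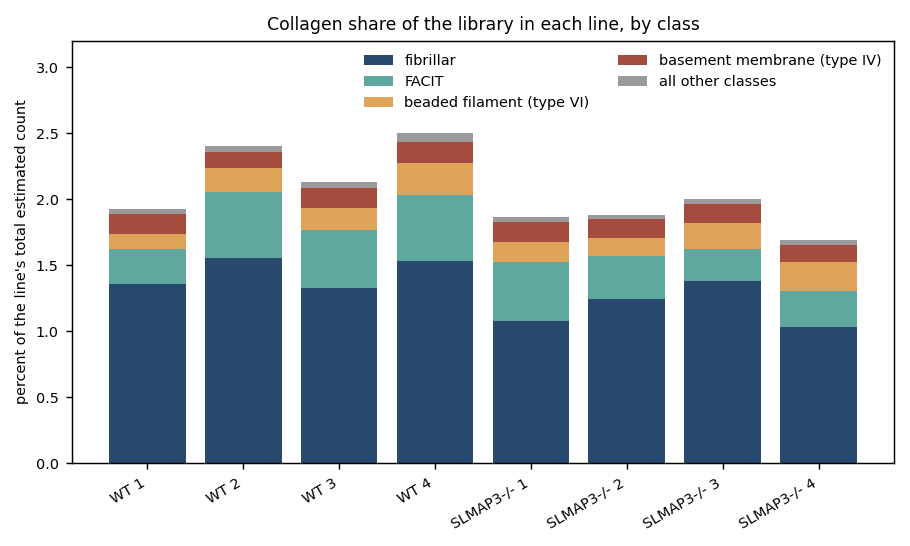
Share of each line's total estimated count that collagen genes took, in percent, with 1 bar per line and the bar divided by collagen class. Bars run from 1.69% in SLMAP3-/- replicate 4 to 2.50% in WT replicate 4, and the fibrillar class is the largest segment of every bar.

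Fibrillar collagens made up most of this share, with 57.9 to 70.6% of the collagen counts of a line. FACIT collagens followed with 12.1 to 23.8%, nearly all of it from Col12a1. Type VI collagens held 5.71 to 13.0% and type IV collagens 4.96 to 8.03%, and these ranges overlapped. Hexagonal network collagens held 1.13 to 2.70%, and the multiplexins, Col7a1, the transmembrane collagens and Col28a1 with Col26a1 each stayed under 1%. Col1a1 alone supplied 27.4% of the collagen counts on average, Col12a1 17.7%, Col1a2 13.97% and Col5a2 13.7%, and the 8 leading genes together 89.7%. Ranked by count among all genes of a line, Col1a1 was between the 3rd and the 7th place in all 8 lines, Col12a1 between the 6th and the 20th, Col1a2 between the 7th and the 25th and Col5a2 between the 9th and the 21st.

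Levels of different genes were compared as CPM per kilobase of the principal transcript. On this scale the 37 collagen genes that passed the filter on low counts spanned 32840-fold, with 8 genes above 100 CPM per kilobase, 14 between 1 and 100 and 15 below 1. The order of the mean over lines began with Col1a1, at 760 to 1182 CPM per kilobase, followed by Col1a2, Col5a2, Col12a1, Col6a1, Col5a1, Col6a2 and Col4a1. Col1a1 was above Col1a2 in every line and their ranges did not overlap within either genotype. The ranges of each following pair of neighbours down to Col4a1 overlapped in both genotypes. Col4a1 and its neighbour Col4a2 overlapped in the WT lines only. Col3a1, the single chain of type III collagen, came after Col4a1 and Col4a2 in the 10th place, at 24.8 to 105 CPM per kilobase. Col4a4 had the lowest mean, next to Col4a3 and Col6a6. With the union of all annotated exons as length, 7 of the first 8 genes were shared, Col6a2 left the first 8 and Col1a2 moved from the 2nd to the 4th place.

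**Figure D2:**
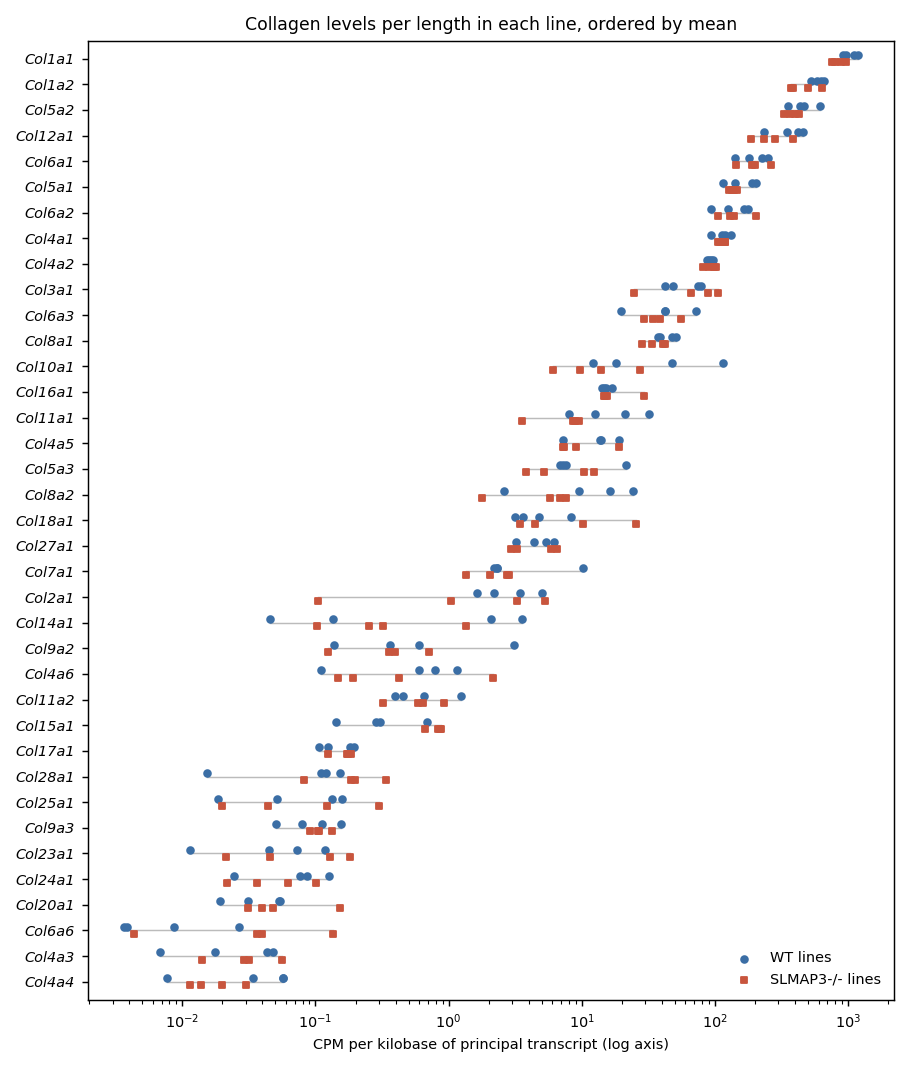
Level of each of the 37 tested collagen genes in CPM per kilobase of principal transcript, on a log axis, with circles for WT lines, squares for SLMAP3-/- lines and a grey line over the range. Genes are ordered by their mean over 8 lines, and the ranges of most neighbours overlap, with Col1a1 apart at the top.

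The promoters of 5 collagen genes named in the results below are shown. Their part in the levels or the spread of these genes was not tested. Col4a1 and Col4a2, on opposite strands, share 1 promoter region and varied little between lines, Col1a2 was high in every line, and Col10a1 and Col11a1 varied widely between lines. Each is the RefSeq window of 250 bases before and 50 bases after the annotated start on GRCm38.p6, written 5′ to 3′ on the strand of the gene, with capitals for the letters TATAAA of a promoter box, for the box known as CCAAT and for the Sp1 motif GGGCGG, on either strand.
Col4a1, chr8:11312777-11313076, minus strand: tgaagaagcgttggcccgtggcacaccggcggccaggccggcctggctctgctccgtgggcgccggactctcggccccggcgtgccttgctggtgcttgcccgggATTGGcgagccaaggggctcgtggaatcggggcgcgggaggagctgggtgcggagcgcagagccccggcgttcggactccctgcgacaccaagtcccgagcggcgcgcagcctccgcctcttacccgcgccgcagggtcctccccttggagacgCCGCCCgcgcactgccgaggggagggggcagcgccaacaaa
Col4a2, chr8:11312555-11312854, plus strand: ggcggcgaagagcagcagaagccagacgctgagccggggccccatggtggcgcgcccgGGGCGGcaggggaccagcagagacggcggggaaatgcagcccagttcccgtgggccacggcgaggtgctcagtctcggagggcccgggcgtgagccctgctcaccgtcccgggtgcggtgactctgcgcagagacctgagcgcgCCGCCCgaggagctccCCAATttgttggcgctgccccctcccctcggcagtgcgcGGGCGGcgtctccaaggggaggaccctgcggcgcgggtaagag
Col1a2, chr6:4505368-4505667, plus strand: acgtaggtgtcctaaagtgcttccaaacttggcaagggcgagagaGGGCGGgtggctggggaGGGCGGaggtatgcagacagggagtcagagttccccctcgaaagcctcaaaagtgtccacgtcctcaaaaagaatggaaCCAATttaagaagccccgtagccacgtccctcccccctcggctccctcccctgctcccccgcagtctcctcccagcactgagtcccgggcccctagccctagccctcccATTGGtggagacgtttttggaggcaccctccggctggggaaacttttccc
Col11a1, chr3:114030290-114030589, plus strand: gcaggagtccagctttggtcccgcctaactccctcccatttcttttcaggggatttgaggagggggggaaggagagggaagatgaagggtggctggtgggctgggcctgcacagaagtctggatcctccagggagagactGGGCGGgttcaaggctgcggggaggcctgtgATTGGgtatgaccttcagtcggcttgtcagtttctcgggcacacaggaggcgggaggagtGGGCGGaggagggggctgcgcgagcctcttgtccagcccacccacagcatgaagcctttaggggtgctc
Col10a1, chr10:34389731-34390030, plus strand: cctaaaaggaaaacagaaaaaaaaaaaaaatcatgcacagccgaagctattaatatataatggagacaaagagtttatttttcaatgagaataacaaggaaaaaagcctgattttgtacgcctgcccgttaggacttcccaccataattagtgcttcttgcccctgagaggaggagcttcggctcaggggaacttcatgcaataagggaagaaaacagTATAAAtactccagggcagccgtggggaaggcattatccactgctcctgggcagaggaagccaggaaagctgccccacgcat
The start sites of Col4a1 and Col4a2 lie 21 bases apart, the transcripts overlap at their 5′ ends, and the 2 windows share 78 bases. Col10a1 was the only one of the 5 windows with a TATAAA and had the lowest GC content, 44.3%, against 61.0% for Col1a2, 62.3% for Col11a1, 73.7% for Col4a2 and 74.0% for Col4a1. The window of Col1a2 is set on a RefSeq start at 4505618, while the GENCODE gene begins at 4504814. Letters around other starts of Col1a2 were not examined, so its lack of a TATAAA holds for this window only. RefSeq windows were at hand for 35 of the 44 genes, 38 windows in all, with none for Col12a1, Col14a1, Col1a1, Col22a1, Col26a1, Col2a1, Col4a3, Col5a2 and Col9a3. TATAAA, searched on both strands, was in 5 of the 38 windows (13.2%, against 13.6% of all 32851 windows), CCAAT in 13 (34.2%, against 37.4%) and GGGCGG in 23 (60.5%, against 35.7%). The median GC content was 59.8% for the collagen windows and 52.7% for all windows. GGGCGG holds only G and C, and the part of GC content in its share was not tested. None of these motifs lies within another, and a match only describes the letters of the window.

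No collagen gene passed the threshold between genotypes. The count at an adjusted p under 0.05 was 0 of 37 (0.00647% of all genes tested passed it), with the smallest adjusted p at 1.00 in edgeR's quasi-likelihood test. DESeq2 also called 0 of the 42 collagen genes to which it gave a p (smallest adjusted p 0.772). Of all genes with an adjusted p from DESeq2, 0.0636% were called. DESeq2 gave no p to Col7a1 and Col6a5, and no adjusted p to Col6a4, Col9a1, Col13a1, Col22a1 and Col26a1. At an unadjusted p under 0.05, 5 of the 37 collagen genes were called by edgeR (1.81% of all genes tested). Col15a1 and Col6a6 were higher in SLMAP3-/- lines (0.964% of all genes) and Col11a1, Col10a1 and Col1a1 lower (0.847%). Complete separation of the lines was found for 0 of the 37 (1.25% of all genes tested). With all 8 lines the smallest exact permutation p of a collagen gene was 0.0571, where 4 lines against 4 allow 0.0286. DESeq2 gave 6 collagen genes at an unadjusted p under 0.05, the same 5 and Col8a2 (1.63% of all genes with a p). The number depended on single lines. It was 1 gene, Col15a1, without WT replicate 4 (1.24% of all genes tested in that fit). It was 6 without WT replicate 1 (3.47%), 3 without WT replicate 2 (2.4%) and 5 without WT replicate 3 (1.68%). Leaving out SLMAP3-/- replicate 1 gave 6 (1.76%) and leaving out SLMAP3-/- replicate 2 gave 2 (1.61%). Without SLMAP3-/- replicate 3 there were 4 (2.56%), and without SLMAP3-/- replicate 4 there were 3 (2.01%). Over the 8 fits that each left out 1 line, Col11a1 had an unadjusted p under 0.05 in 7, all but the fit without WT replicate 4, and Col15a1 in 6, all but those without WT replicates 2 and 3. Col1a1 and Col10a1 each had it in 3 of these fits and Col6a6 in 2, those without WT replicate 2 and without SLMAP3-/- replicate 4. The log2 fold change moved by more than 1.5 times in at least 1 of the 8 fits for 33 of the 37 genes, all but Col1a1, Col11a1, Col15a1 and Col4a4, and turned its sign for 17.

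Of the 37 genes, 22 had a log2 fold change below 0 and 15 above, that is 59.5% below against 50.5% of all genes tested. The median was -0.15 for the collagen genes and -0.0014 for all genes. Without WT replicate 4 the collagen median was 0.023, and it was -0.035 without WT replicate 3, -0.048 without SLMAP3-/- replicate 1 and -0.059 without SLMAP3-/- replicate 2. It was -0.12 without WT replicate 1, -0.15 without WT replicate 2, -0.18 without SLMAP3-/- replicate 3 and -0.17 without SLMAP3-/- replicate 4. Among the 22 collagen genes with a mean of at least 10 CPM, a floor chosen after the values were seen, 17 were below 0 and their median was -0.28, against 50.6% below 0 and a median of -0.0012 for all genes above that floor.

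**Figure D3:**
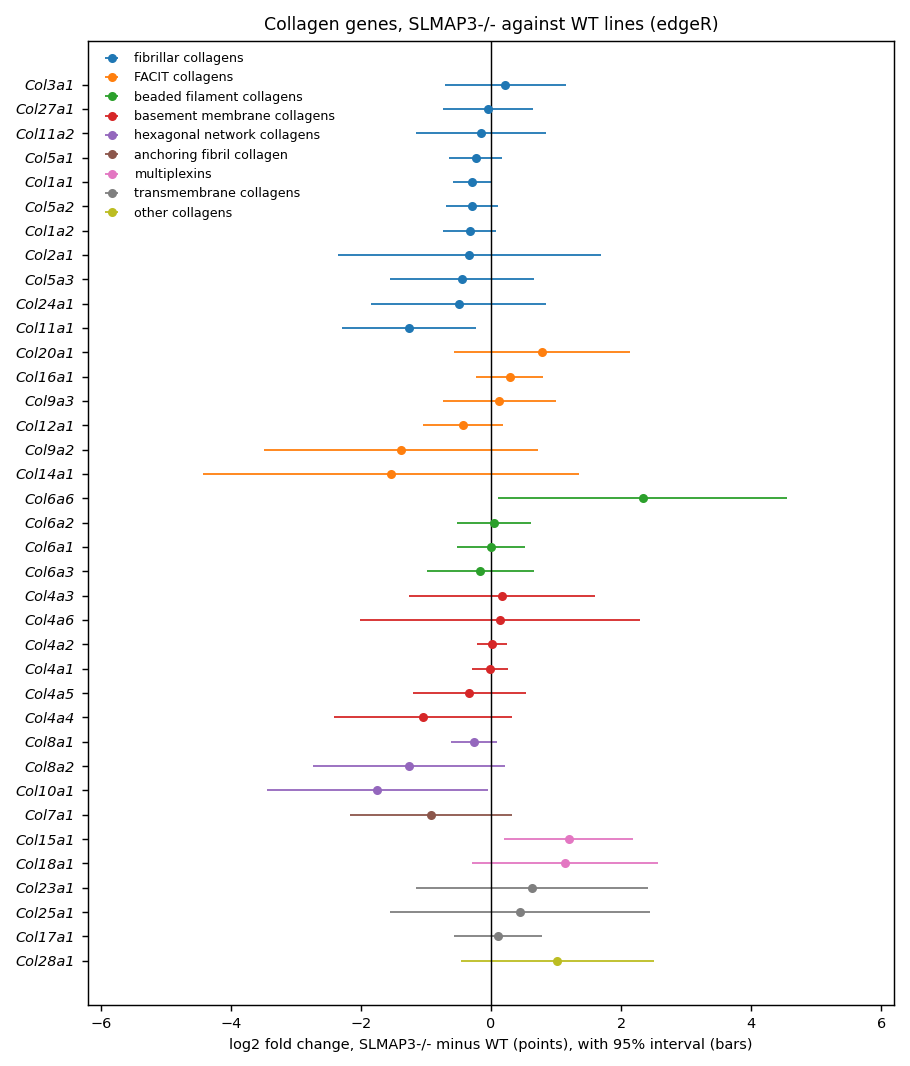
Log2 fold change of each of the 37 tested collagen genes, SLMAP3-/- minus WT, from edgeR, with bars for the 95% interval of the single gene and colours for the class. Intervals of 5 genes do not reach 0, those of Col15a1 and Col6a6 on the right and those of Col11a1, Col10a1 and Col1a1 on the left, and no gene passes adjustment over all genes.

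The fibrillar class had 10 of its 11 genes below 0, all but Col3a1, with a median log2 fold change of -0.30 and with Col1a1 and Col11a1 at an unadjusted p under 0.05. Col1a1 (ENSMUSG00000001506.10, chromosome 11 from 94936224 to 94953042 of GRCm38) encodes the α1 chain of type I collagen, which joins with the α2 chain in the trimers of most fibrils. It had 5474, 7009.6, 5715 and 6618 CPM in WT replicates 1 to 4 and 4508, 5225, 5687 and 4759.5 CPM in SLMAP3-/- replicates 1 to 4. SLMAP3-/- replicate 3 was above WT replicate 1 and the other SLMAP3-/- lines were below every WT line. The log2 fold change was -0.30 (standard error 0.13, unadjusted p = 0.0458 from edgeR, exact permutation p = 0.0571). Col1a2 (ENSMUSG00000029661.16, chromosome 6 from 4504814 to 4541544), the α2 chain, had 3113, 3356, 2813 and 3506 CPM in WT replicates 1 to 4 and 2075, 2697, 3385 and 2008 CPM in SLMAP3-/- replicates 1 to 4. SLMAP3-/- replicates 1, 2 and 4 were below every WT line and replicate 3 was above 3 of them, for a log2 fold change of -0.33 (standard error 0.18, unadjusted p = 0.101 from edgeR). Without SLMAP3-/- replicate 3 the value of Col1a2 was -0.50. Per kilobase, the ratio of Col1a1 to Col1a2 was 1.80 ± 0.202 (SD, n = 8 lines), with a range of 1.52 to 2.14.

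Col5a2 and Col5a1 encode chains of type V collagen, which is built into type I fibrils and limits their diameter. Col5a2 (ENSMUSG00000026042.16, chromosome 1 from 45374321 to 45503282) had 3091, 4090.0, 2351 and 2904 CPM in WT replicates 1 to 4 and 2668, 2843, 2411 and 2184 CPM in SLMAP3-/- replicates 1 to 4. WT replicate 2 was the highest line and the genotypes overlapped, and the log2 fold change came to -0.30 (standard error 0.18, unadjusted p = 0.124 from edgeR), or -0.14 without that line. Col5a1 (ENSMUSG00000026837.16, chromosome 2 from 27886425 to 28039514) had 1705, 1584, 969 and 1179.6 CPM in WT replicates 1 to 4 and 1231, 1179, 1122 and 1077 CPM in SLMAP3-/- replicates 1 to 4. The 4 SLMAP3-/- lines lay close together within the range of the WT lines, for a log2 fold change of -0.24 (standard error 0.18) that was -0.11 without WT replicate 1. Col5a3, the third chain of type V, was far lower at 131, 44.6, 46.6 and 42.3 CPM in WT and 31.9, 63.1, 75.5 and 23.5 CPM in SLMAP3-/- replicates 1 to 4, with WT replicate 1 apart from all other lines and a log2 fold change of -0.45 that was 0.13 without it. Col3a1 had 233, 269.8, 419 and 438 CPM in WT and 367, 584, 493 and 138 CPM in SLMAP3-/- replicates 1 to 4, for a log2 fold change of 0.22 (standard error 0.41). Its lowest and 2 highest lines were all SLMAP3-/- lines.

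Col11a1, a fibrillar chain best known from cartilage, had 61.7, 96.2, 161 and 243 CPM in WT replicates 1 to 4 and 73.2, 68.5, 65.4 and 27.4 CPM in SLMAP3-/- replicates 1 to 4. It lies on chromosome 3 from 114030540 to 114220718 (ENSMUSG00000027966.20). WT replicates 2, 3 and 4 were above every SLMAP3-/- line, WT replicate 1 was within them, and SLMAP3-/- replicate 4 was the lowest of all. The log2 fold change was -1.26 (standard error 0.45, 95% interval -2.29 to -0.23, unadjusted p = 0.0217 from edgeR, exact permutation p = 0.114), the smallest unadjusted p of the collagen genes. Col2a1, the main fibrillar collagen of cartilage, had 17.5, 8.30, 11.2 and 25.5 CPM in WT replicates 1 to 4 and 0.537, 5.30, 16.6 and 27.1 CPM in SLMAP3-/- replicates 1 to 4, from 31 to 1499 counts in a line. SLMAP3-/- lines were both the lowest and the highest of the 8, and the log2 fold change was -0.34 (standard error 0.88), or -1.06 without SLMAP3-/- replicate 4 and 0.066 without SLMAP3-/- replicate 1. Of the 7 chondrocyte markers 5 passed the filter, Snorc was at 0 in every line, Sox9 lay between 10.1 and 36.2 CPM, and the sum ran from 29.1 to 56.6 CPM in WT and from 25.4 to 32.5 CPM in SLMAP3-/- lines. The part of these markers in the levels of Col11a1, Col2a1 and the FACIT gene Col9a2 was not tested. Col11a2, Col24a1 and Col27a1, the remaining fibrillar genes, had log2 fold changes of -0.15, -0.50 and -0.047, with means of 3.69 ± 2.07, 0.560 ± 0.302 and 36.5 ± 9.80 CPM (SD, n = 4) in WT lines.

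In the FACIT class 3 of the 6 genes tested were above 0 and 3 below, with a median log2 fold change of -0.15 and none at an unadjusted p under 0.05. Col12a1 (ENSMUSG00000032332.17, chromosome 9 from 79598991 to 79718831), which associates with type I fibrils, carried nearly the whole class with 2673, 5283, 4005 and 4843 CPM in WT replicates 1 to 4 and 4419, 3240.4, 2164 and 2678 CPM in SLMAP3-/- replicates 1 to 4. The genotypes overlapped, with WT replicate 1 among the low lines and SLMAP3-/- replicate 1 among the high ones, and the log2 fold change was -0.43 (standard error 0.27, unadjusted p = 0.149 from edgeR). Col14a1, which also binds to fibrils, had 0.258, 0.774, 11.8 and 20.3 CPM in WT replicates 1 to 4 and 1.44, 0.580, 1.82 and 7.63 CPM in SLMAP3-/- replicates 1 to 4. WT lines were both the lowest and the highest of the 8, and the difference between WT replicates 1 and 4 was 78.8-fold, the largest between any 2 lines for a tested collagen gene. Its log2 fold change was -1.53 (standard error 1.27), and ran from -2.69 without SLMAP3-/- replicate 4 to -0.58 without WT replicate 4, with -0.49 from limma-voom. Col9a2, a chain of the type IX collagen of cartilage, had 0.403, 1.06, 8.99 and 1.75 CPM in WT replicates 1 to 4 and 1.16, 1.04, 2.09 and 0.364 CPM in SLMAP3-/- replicates 1 to 4. WT replicate 3 was far above the other lines, and the log2 fold change of -1.39 (standard error 0.92) became 0.12 without it. Col16a1, Col20a1 and Col9a3 had log2 fold changes of 0.28, 0.78 and 0.13.

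Type VI collagen is assembled from the α1, α2 and α3 chains of Col6a1, Col6a2 and Col6a3. Col6a1 (ENSMUSG00000001119.7, chromosome 10 from 76708792 to 76726168) had 577, 926, 744 and 1035 CPM in WT replicates 1 to 4 and 781, 594, 820.0 and 1086 CPM in SLMAP3-/- replicates 1 to 4. The lowest line was WT replicate 1 and the highest SLMAP3-/- replicate 4, and the log2 fold change was -0.00064 (standard error 0.23). Col6a2 and Col6a3 had log2 fold changes of 0.043 (standard error 0.25) and -0.17 (standard error 0.36). Col6a6 (ENSMUSG00000043719.14, chromosome 9 from 105687809 to 105828160), an alternative to the α3 chain, was near the filter, with 2 to 59 counts in a line. It had 0.0323, 0.232, 0.0757 and 0.0340 CPM in WT replicates 1 to 4 and 0.346, 1.18, 0.321 and 0.0383 CPM in SLMAP3-/- replicates 1 to 4. SLMAP3-/- replicates 1 to 3 were above every WT line and replicate 4 was among the low WT lines. The log2 fold change was 2.33 (standard error 0.97, 95% interval 0.10 to 4.55, unadjusted p = 0.0421 from edgeR, exact permutation p = 0.143). It ran from 1.35 without SLMAP3-/- replicate 2 to 3.27 without WT replicate 2.

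The basement membrane class held 3 genes above 0 and 3 below, with a median log2 fold change of -0.0012 and none at an unadjusted p under 0.05. Col4a1 and Col4a2 encode the α1 and α2 chains of the type IV collagen found in nearly all basement membranes. Col4a1 (ENSMUSG00000031502.11, chromosome 8 from 11198423 to 11312826) had 881, 616, 744 and 786 CPM in WT replicates 1 to 4 and 725, 783, 784 and 697 CPM in SLMAP3-/- replicates 1 to 4. The WT lines spanned the SLMAP3-/- lines on both sides, and the log2 fold change was -0.018 (95% interval -0.29 to 0.26). Col4a2 (ENSMUSG00000031503.13, chromosome 8 from 11312805 to 11449287) had 607, 559, 585 and 624 CPM in WT replicates 1 to 4 and 658, 636, 585 and 521 CPM in SLMAP3-/- replicates 1 to 4. Its highest and lowest lines, both SLMAP3-/-, differed by 1.26-fold, the least of the 37 genes, and the log2 fold change was 0.015 (95% interval -0.21 to 0.24). Col4a5 and Col4a6 lie head to head on the X chromosome with start sites 1309 bases apart, and form type IV networks of more restricted tissues. Col4a5 had 47.2, 89.99, 91.5 and 124 CPM in WT replicates 1 to 4 and 125, 59.5, 47.4 and 47.9 CPM in SLMAP3-/- replicates 1 to 4. Col4a6 had 0.726, 4.01, 7.64 and 5.27 CPM in WT replicates 1 to 4 and 14.4, 0.981, 2.80 and 1.27 CPM in SLMAP3-/- replicates 1 to 4. SLMAP3-/- replicate 1 was the highest line for both, and the log2 fold changes were -0.33 (standard error 0.38) and 0.14 (standard error 0.94), of which the second was -1.38 without that line. Col4a3 and Col4a4, the chains of the mature glomerular basement membrane, had at most 36 counts in a line and log2 fold changes of 0.17 and -1.05.

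All 3 hexagonal network genes had log2 fold changes below 0, with a median of -1.26, and Col10a1 was at an unadjusted p under 0.05. Col10a1 (ENSMUSG00000039462.4, chromosome 10 from 34389981 to 34397085) is best known from hypertrophic chondrocytes of the growth plate. It had 37.7, 149, 56.2 and 361 CPM in WT replicates 1 to 4 and 86.3, 30.1, 43.7 and 19.1 CPM in SLMAP3-/- replicates 1 to 4. WT replicates 4 and 2 were above every SLMAP3-/- line, while WT replicates 1 and 3 lay among them, and SLMAP3-/- replicate 4 was the lowest. The log2 fold change was -1.75 (standard error 0.75, 95% interval -3.45 to -0.052, unadjusted p = 0.0447 from edgeR, exact permutation p = 0.171), and -0.85 without WT replicate 4. The gene lies opposite to Nt5dc1, which had 11.9 to 18.3 CPM, and whether the counting used strand is not given in the sources used here. Chondrocyte markers varied beside Col10a1 as given above, and their part in it was not tested. Col8a2 and Col8a1 encode the α2 and α1 chains of type VIII collagen. Col8a2 had 11.3, 41.2, 70.7 and 105 CPM in WT and 29.9, 7.70, 32.8 and 25.2 CPM in SLMAP3-/- replicates 1 to 4, for a log2 fold change of -1.26 (standard error 0.65, unadjusted p = 0.0862 from edgeR). Col8a1 was more even, at 190.2, 244, 259 and 197 CPM in WT and 208, 215, 173 and 146 CPM in SLMAP3-/- replicates 1 to 4, for a log2 fold change of -0.26 (standard error 0.16).

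Col15a1 and Col18a1, the multiplexins of basement membrane zones, both had log2 fold changes above 0. Col15a1 (ENSMUSG00000028339.17, chromosome 4 from 47208161 to 47313167) had 0.742, 1.47, 1.59 and 3.54 CPM in WT replicates 1 to 4 and 4.29, 3.46, 4.45 and 4.56 CPM in SLMAP3-/- replicates 1 to 4, from 46 to 277 counts in a line. WT replicate 4 was just above SLMAP3-/- replicate 2 and the other WT lines were below every SLMAP3-/- line. The log2 fold change was 1.19 (standard error 0.43, 95% interval 0.20 to 2.18, unadjusted p = 0.0234 from edgeR, exact permutation p = 0.0571). Left without WT replicate 4 it was 1.73, and without WT replicate 1 it was 0.93. Col18a1 (ENSMUSG00000001435.15, chromosome 10 from 77052178 to 77166548), whose C-terminal fragment is endostatin, had 39.6, 22.7, 17.4 and 15.2 CPM in WT replicates 1 to 4 and 16.4, 21.5, 48.8 and 123 CPM in SLMAP3-/- replicates 1 to 4. SLMAP3-/- replicate 4 was far above the rest and SLMAP3-/- replicate 1 within the lower WT lines, for a log2 fold change of 1.14 (standard error 0.63) that was 0.28 without SLMAP3-/- replicate 4. Col18a1 overlaps Slc19a1 on the opposite strand, which had 22.04 to 47.9 CPM. Of 6 endothelial markers, Kdr, Tek and Vwf passed the filter and Pecam1, Cdh5 and Tie1 did not. The 3 summed to 9.53 to 27.6 CPM in WT and 16.7 to 41.9 CPM in SLMAP3-/- lines. Kdr gave 7.87 to 22.6 CPM in WT and 8.60 to 28.4 CPM in SLMAP3-/- lines. Tek gave 1.55 to 4.76 CPM in WT and 2.11 to 12.2 CPM in SLMAP3-/- lines. The part of these markers in the levels of Col15a1 and Col18a1 was not tested.

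Col28a1 (ENSMUSG00000068794.7, chromosome 6 from 7997808 to 8192617), known mainly from peripheral nerve, had 0.0645, 0.464, 0.511 and 0.646 CPM in WT replicates 1 to 4 and 0.346, 0.841, 0.787 and 1.44 CPM in SLMAP3-/- replicates 1 to 4, or 4 to 75 counts in a line. WT replicate 1 was the lowest and SLMAP3-/- replicate 4 the highest, and the log2 fold change was 1.01 (standard error 0.65). Schwann cell markers summed to 2.23 to 4.65 CPM in WT and 1.84 to 5.20 CPM in SLMAP3-/- lines, and their part in it was not tested. Col7a1, which forms the anchoring fibrils under epithelia, had 94.5, 21.5, 21.4 and 20.5 CPM in WT replicates 1 to 4 and 12.4, 25.3, 26.4 and 18.98 CPM in SLMAP3-/- replicates 1 to 4. WT replicate 1 was far above the other 7 lines, and the log2 fold change of -0.93 (standard error 0.54) became -0.018 without it. The transmembrane collagens Col17a1, Col23a1 and Col25a1 had log2 fold changes of 0.10, 0.63 and 0.44 at 3 to 59 counts in a line. Col9a1, Col13a1, Col19a1, Col22a1, Col26a1, Col6a4 and Col6a5 did not pass the filter. Of these, Col9a1 had at most 1 count in a line, Col13a1 2, Col22a1 4, Col6a4 8, Col26a1 13, Col19a1 27 and Col6a5 56.

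The lines of a genotype spread more widely for most collagen genes than for the median gene of the table. The median SD of log2 CPM within a genotype was 0.73 for the 37 collagen genes and 0.28 for all genes tested, and 0.47 against 0.20 among genes with a mean of at least 10 CPM. Of the 22 collagen genes above that floor, 19 were over the median spread of such genes and 11 over their 90th percentile. Col2a1 stood at the 99.4th percentile, Col10a1 at the 98.5th, Col8a2 at the 98.4th and Col18a1 at the 97.6th. Col4a2, Col1a1 and Col4a1, at percentiles of 17.1, 35.6 and 37.9, were the only 3 under the median. The highest line exceeded the lowest by more than 10-fold for 10 genes, by 2-fold to 10-fold for 18 and by less for 9, with a median of 5.56-fold. WT replicate 1 was the lowest line for 14 of the 37 genes and the highest for 5. SLMAP3-/- replicate 4 was the highest for 9 and the lowest for 9.

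**Figure D4:**
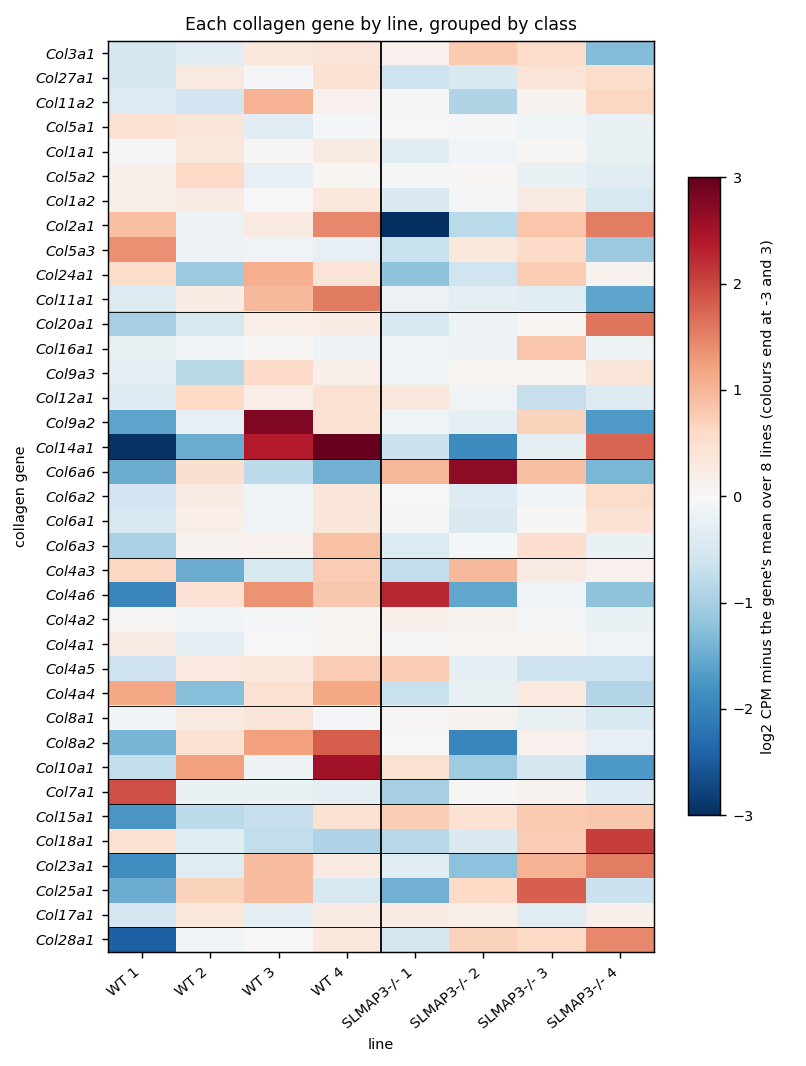
Log2 CPM of each tested collagen gene in each line minus the mean of the gene over 8 lines, with red above and blue below the mean, colours ending at -3 and 3, genes grouped by class and a black line between the genotypes. Col1a1, Col4a1 and Col4a2 are pale in all lines, while Col14a1, Col2a1, Col9a2 and Col4a6 reach dark colours in at least 1 line.

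Expression over the 8 lines was compared in 10 pairs of chains of one collagen type, of related types or of neighbouring genes, by exact permutation tests with Benjamini-Hochberg adjustment over the pairs. Col6a1 and Col6a2, 85.2 kb apart on chromosome 10, went together most closely, with Pearson's r = 0.98 (p = 7.44e-05, adjusted p = 0.000744, exact permutation) and Spearman's rho = 0.98 (p = 0.000397, adjusted p = 0.00397, exact permutation), and r was 0.97 without the 2 lines farthest from the median of Col6a1. Their ratio per kilobase was 1.42 ± 0.0796 (SD, n = 8 lines). For Col1a1 and Col1a2, r was 0.88 (p = 0.00635, adjusted p = 0.0315, exact permutation) and rho 0.81 (p = 0.0218, adjusted p = 0.0544, exact permutation), with r = 0.87 without the 2 farthest lines. For Col5a1 and Col5a2, r was 0.81 (p = 0.0111, adjusted p = 0.0315, exact permutation) and rho 0.88 (p = 0.00724, adjusted p = 0.0241, exact permutation), with r = 0.70 without the 2 farthest. The genes Col4a5 and Col4a6 had r = 0.85 (p = 0.0126, adjusted p = 0.0315, exact permutation) and rho = 0.88 (p = 0.00724, adjusted p = 0.0241, exact permutation), with r = 0.77 without the 2 farthest. Once the genotype means were removed, r was 0.98 for Col6a1 and Col6a2, 0.80 for Col1a1 and Col1a2, 0.78 for Col5a1 and Col5a2 and 0.87 for Col4a5 and Col4a6. These 4 pairs passed the adjusted threshold by r, and 3 of them by rho. The share of other gene pairs that reach such values over these 8 lines was not examined. The count is therefore not read as a trait of partner chains.

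The remaining 6 pairs did not pass it. Col4a1 and Col4a2, with the shared promoter region printed above, had r = 0.48 and rho = 0.40 (adjusted p = 0.367 and 0.545, exact permutation), over ranges of only 1.43-fold and 1.26-fold between lines, and r = 0.51 without the 2 farthest lines. Their ratio per kilobase was 1.23 ± 0.116 (SD, n = 8 lines). Col6a1 and Col6a3, on different chromosomes, had r = 0.57 and rho = 0.43 (adjusted p = 0.275 and 0.545, exact permutation), and their ratio per kilobase ran from 3.49 to 7.76. Col3a1 and Col5a2, neighbours 24.6 kb apart on chromosome 1, had r = 0.031 and rho = 0 (adjusted p = 0.937 and 1, exact permutation), and r was -0.67 without the 2 farthest lines, which include SLMAP3-/- replicate 4. For Col8a1 with Col8a2, Col15a1 with Col18a1 and Col11a1 with Col5a1, r was 0.24, 0.16 and -0.097 and rho 0.31, 0.21 and 0, with adjusted p from 0.660 to 1 (exact permutation).

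**Figure D5:**
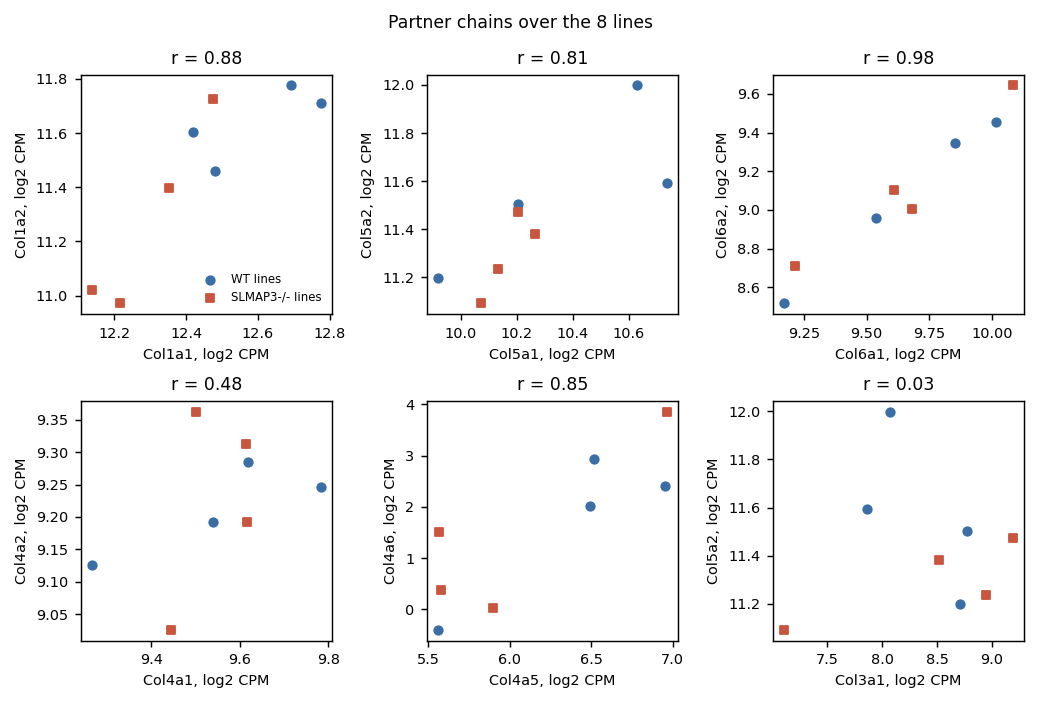
Log2 CPM of 6 of the 10 pairs of collagen genes in the 8 lines, with circles for WT and squares for SLMAP3-/- lines and Pearson's r above each panel. The lines lie along a rising band for Col6a1 with Col6a2 (r = 0.98) and show no such band for Col3a1 with Col5a2 (r = 0.03).

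Genes that modify, process, bind or take up collagen are described from 4 lists of 48 genes, of which 46 passed the filter. Of these, 35 had a log2 fold change below 0 and the median was -0.12, 0 were called at an adjusted p under 0.05, and 3 at an unadjusted p under 0.05 in edgeR, all lower in SLMAP3-/- lines. Over all genes tested, 50.5% were below 0, the median was -0.0014, and 1.81% had an unadjusted p under 0.05, 0.847% of all genes in the lower direction. Plod2, a lysyl hydroxylase of collagen telopeptides, had 66.8, 44.1, 63.6 and 65.1 CPM in WT replicates 1 to 4 and 39.02, 37.6, 48.1 and 38.2 CPM in SLMAP3-/- replicates 1 to 4. SLMAP3-/- replicate 3 was above WT replicate 2 and the other lines did not cross, for a log2 fold change of -0.56 (standard error 0.15, unadjusted p = 0.00525 from edgeR, exact permutation p = 0.0571). P4ha1, a catalytic subunit of prolyl 4-hydroxylase, had 155, 161, 167 and 172 CPM in WT replicates 1 to 4 and 138, 139.6, 134 and 147 CPM in SLMAP3-/- replicates 1 to 4. It was the only gene of these lists whose 4 SLMAP3-/- lines all lay below the 4 WT lines (0.530% of all genes tested), for a log2 fold change of -0.23 (standard error 0.074, unadjusted p = 0.0128 from edgeR, exact permutation p = 0.0286, the smallest the design allows). Ddr1, a receptor tyrosine kinase for collagen, had 81.3, 92.4, 87.9 and 104 CPM in WT replicates 1 to 4 and 66.6, 83.5, 67.8 and 82.8 CPM in SLMAP3-/- replicates 1 to 4, overlapping by WT replicate 1, and a log2 fold change of -0.28 (standard error 0.11, unadjusted p = 0.0368 from edgeR).

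The collagen chaperone Serpinh1 had 1534, 1522, 1306 and 1374 CPM in WT and 1339, 1225, 1241 and 1150.3 CPM in SLMAP3-/- replicates 1 to 4. Only SLMAP3-/- replicate 1 reached above the lowest WT line, and the log2 fold change was -0.21 (standard error 0.10, unadjusted p = 0.0615 from edgeR). P4hb, the other subunit of prolyl 4-hydroxylase, Bmp1, the procollagen C-proteinase, and Lox, the crosslinking lysyl oxidase, had log2 fold changes of -0.026 (standard error 0.094), -0.11 (standard error 0.16) and -0.023 (standard error 0.36). By list, 15 of 19 genes of modification and folding, 9 of 12 of processing and crosslinking, 6 of 7 fibril partners and 5 of 8 receptor and uptake genes were below 0.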

How the data were processed

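The authors assigned reads of stranded mRNA libraries to the GENCODE M25 transcriptome of GRCm38 with Salmon and deposited length-scaled estimated counts per gene and line, not normalized between lines. Tool versions are not given in the sources used here. A deposited table of the authors' own DESeq2 comparison (fold changes and p-values) was not used. The estimated counts were rounded and tested with the quasi-likelihood test of edgeR 4.0.16 in R 4.3.3 (filterByExpr with a minimum count of 10, TMM, no covariates), with Benjamini-Hochberg adjustment over all 15461 genes tested. Standard errors come from the F statistic, and log2 CPM used a prior count of 2. Permutation tests are exact and two-sided, run in R for single genes and in numpy 2.4.6 for pairs, with ranks from scipy 1.17.1. Each replicate is 1 line, taken to come from 1 embryo. The fits were first tested on simulated data.

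Lengths (the longest principal transcript) and positions were taken from GENCODE M21 of GRCm38, matched by gene ID for all 44 genes, and promoters from RefSeq. Length-scaled counts make levels per kilobase approximate. The collagen genes and all lists were chosen with earlier results of these data known. Genes described in full are the 8 with the largest share, those with an unadjusted p under 0.05 or lines that did not overlap, the 4 largest rises and falls and the 4 widest spreads. Of the pathway lists, genes called likewise and Serpinh1, P4hb, Plod2, Bmp1 and Lox are named. Other genes named with values, and the ratios, were chosen after their values were seen. Alternatives were DESeq2 1.42.0, limma-voom (limma 3.58.1), other scalings and filters, counts not rounded, robust dispersion, Y-linked expression as a covariate, a block for the replicate number, a threshold of 0.1, other prior counts and lengths, and leaving out each line.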

Additional observations from a re-analysis of the deposited data

Results flagged for a closer look

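Each collagen gene was examined in each genotype for 1 line that stood apart from the other 3, by the gap to the nearest line as a share of the range of CPM over the 4 lines. Of 74 groups examined, 8 were picked out. For normally distributed values the rule picks out 1 group in 20, or about 3.7. It was applied to CPM that were not on a log scale and whose distribution was not checked. The number 3.7 need not hold here, and no conclusion is drawn from it. In WT replicate 1, Col7a1 was at 94.5 CPM against 20.5 to 21.5 CPM in the other WT lines, a gap of 0.986 of the range. In the same line Col5a3 was at 131 CPM against 42.3 to 46.6 CPM, a gap of 0.952 of the range. Col9a2 was at 8.99 CPM in WT replicate 3 against 0.403 to 1.75 CPM, a gap of 0.843.

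In SLMAP3-/- replicate 1, the neighbouring genes Col4a6 and Col4a5 both stood apart, at 14.4 CPM against 0.981 to 2.80 CPM (0.865 of the range) and at 125 CPM against 47.4 to 59.5 CPM (0.844 of the range). Col16a1 was at 153 CPM in SLMAP3-/- replicate 3 against 76.9 to 80.3 CPM (0.956 of the range). SLMAP3-/- replicate 4 had the highest Col20a1 of its genotype, 0.767 CPM against 0.156 to 0.241 CPM (0.861 of the range). It also had the lowest Col11a1, 27.4 CPM against 65.4 to 73.2 CPM (0.831 of the range).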

How the results depend on the processing

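The count of 0 collagen genes at an adjusted p under 0.05 held under all alternatives. The 5 genes at an unadjusted p under 0.05 were 3 with limma-voom (1.74% of all genes) and 3 with at least 10 counts in every library (1.9%). They were 2 with Y-linked expression as a covariate (1.38%) and 6, without Col1a1, with no filter on low counts (2.33%). When 1 line was left out they were 1 to 6 (1.24 to 3.47% of all genes). Genes whose lines did not overlap numbered 1 to 3 when 1 line was left out, where 2.1 to 4.42% of all genes did so, with 3 (4.42%) without WT replicate 1. The median log2 fold change was -0.25 with at least 10 counts in every library, -0.067 with the Y-linked covariate and -0.18 to 0.023 when 1 line was left out, and the median spread 0.62 to 0.78. Some values turned their sign. Col4a6 was at -0.23 with limma-voom. Lox was at 0.052 with limma-voom, 0.0084 without TMM and 0.027 with the Y-linked covariate. Col6a1 was at 0.0048 without TMM, 0.0060 without a filter and 0.0024 with at least 10 counts. With 1 line left out, log2 fold changes ran from -0.10 to 0.068 for Col4a1, -0.032 to 0.077 for Col4a2, -1.38 to 0.56 for Col4a6, -0.17 to 0.13 for Col6a1, -1.83 to 0.12 for Col9a2, -1.06 to 0.066 for Col2a1, -0.051 to 0.028 for P4hb and -0.25 to 0.34 for Lox. The cause was not tested.

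Lines of the same replicate number come from different embryos, and the correlations of their deviations were -0.16, 0.058, 0.19 and -0.0032, so the replicate numbers did not pair them. SLMAP3-/- replicate 3 and WT replicate 4 share a number in their names, MEF10A and MEF10B. The correlation of their deviations was 0.13, the highest of WT replicate 4 with any SLMAP3-/- line. SLMAP3-/- replicate 3 had a higher one, 0.19, with WT replicate 3. No fit with a pairing by these names was run, and whether such lines are related was not tested. With the replicate number as a block, 4 collagen genes had an unadjusted p under 0.05 (1.9% of all genes), and the median was -0.096. In that fit Col4a6 was at -0.86, Col6a1 at 0.0030, Lox at 0.038, and Slmap at -1.84 (adjusted p = 0.171, edgeR). Over all alternatives, 434 values of single genes kept direction and side of the threshold, 31 turned sign and 1, Slmap under the block, lost its call. Counts under about 60 in a line, as for Col6a6, limit the low genes.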

Other observations

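Col6a5 and Col6a6, type VI chains whose genes lie 27.9 kb apart on chromosome 9, were both highest in SLMAP3-/- replicate 2, with 56 and 59 counts, against at most 5 counts of Col6a5 and 20 counts of Col6a6 in any other line. Col6a4, in the same cluster, had 2 counts in that line. These genes were chosen after their values were seen.

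Several ratios of partner collagens, per kilobase, ranged widely between lines. The ratio of Col4a5 to Col4a6 ran from 8.80 in SLMAP3-/- replicate 1 to 66.2 in WT replicate 1. Col8a1 to Col8a2 ran from 1.59 in WT replicate 4 to 23.6 in SLMAP3-/- replicate 2, and Col1a1 to Col3a1 from 8.39 in SLMAP3-/- replicate 2 to 32.4 in SLMAP3-/- replicate 4. In each of these the range of WT lines overlapped that of SLMAP3-/- lines.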
